A study of Mus musculus with 6 samples.

Results

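RNA was measured in 2 mouse ovarian cancer lines, and the levels of 66 genes of the interferon response and of antigen presentation were compared between them. The genes were chosen by a rule on their names, with earlier results of these data known. A gene was taken when its symbol in the deposited table began with or matched one of a fixed set of interferon, MHC, immunoproteasome, peptide transporter, STAT, IRF, guanylate-binding protein or TRIM names, which gave 66 of the 7320 genes in that table. ID8 is a clonal, spontaneously immortalized line of C57Bl6 mouse ovarian surface epithelium. KMF, also called ID8-IP, was recovered from the ascites of C57Bl6 mice that carried ID8 cells. The study found copy number gains and losses in its DNA, with gains of Myc and the focal adhesion kinase gene among them. Both lines were untreated and had grown for 5 days as tumorspheres in serum-free 3D medium. Each line had 3 libraries of poly-A RNA, made at passages 23, 24 and 35 for ID8 replicates 1 to 3 and at passages 14, 17 and 22 for KMF replicates 1 to 3. The passage ranges do not overlap, so the line and the passage cannot be told apart. Each line is represented by passages of 1 culture line rather than by independent isolates, so an adjusted p-value here measures only the spread between these samples.

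Interferons are secreted proteins that cells release when sensors in the cytosol or in endosomes detect foreign or misplaced nucleic acid. They act through receptors and JAK kinases on STAT and IRF transcription factors, which switch on antiviral effector genes and the genes that cut, transport and display peptides on MHC class I. In tumor cells the pathway is known for its part in recognition by cytotoxic T cells, since peptides on class I are what these cells read.

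The deposited table lists only genes that its authors had already called different between these same libraries, which is 42.2% of the 17359 genes of their test. A call for 1 of the 66 genes therefore largely restates that it is listed, and sizes, directions and library values carry the description below. The libraries held between 23108407 and 33212313 fragments on genes, of which the listed genes carried 52.8% to 55.9%. At these depths 3 counts corresponded to between 0.0903 and 0.130 CPM, a count relative to the library total, and this limit covers counting error only. Counts were fitted with edgeR, and a gene is termed called when its Benjamini-Hochberg adjusted p-value was under 0.05. The fit called 62 of the 66 genes, or 93.9%, against a background of 92.9% of the 6967 listed genes that were fitted. Of the 66 genes, 28 were higher and 34 lower in KMF, against backgrounds of 45.4% higher and 47.5% lower. At least 2-fold changes numbered 17 higher and 20 lower, where 18.0% and 22.5% of fitted genes changed as much. The scaled counts of the lines did not overlap for any of the 66 genes, which was also true of 97.3% of the listed genes. The median log2 fold change of KMF over ID8 was -0.41 for the 66 genes and -0.23 for all fitted genes. Both medians turned positive, at 0.30 and 0.20, with at least 10 counts required in every library. None of these shares is a result about the 66 genes as a whole, and what follows concerns how their parts differ from each other.

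**Figure D1:**
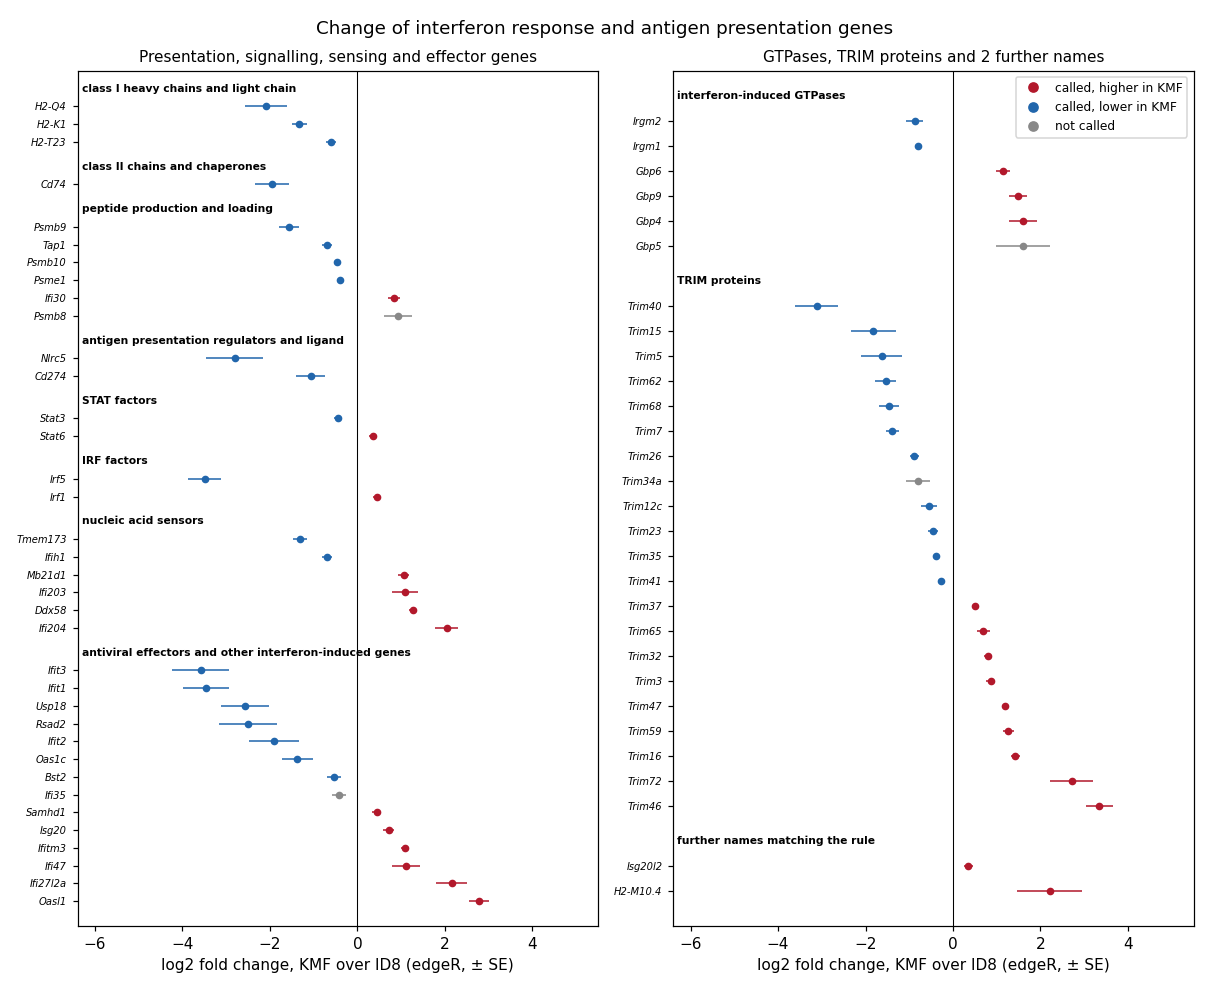
Log2 fold change of KMF over ID8 from the edgeR fit (x axis) for 65 of the 66 genes (y axis, grouped by role), with bars of 1 SE. Red points were called higher in KMF, blue points lower, and the 4 grey points were not called. The genes of the class I and class II lists lie on the left and H2-M10.4, a class Ib gene outside them, on the right, 4 of 6 nucleic acid sensors are on the right, and the effectors run from -3.58 for Ifit3 to 2.78 for Oasl1.

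Promoter sequences are shown first for some of the genes described below, with and without a match to interferon motifs. RefSeq promoters of GRCm38.p6 spanned 250 bases before to 50 bases after a transcript start. They were matched to 52 of the 66 genes by Ensembl identifier, or failing that by symbol or synonym. The interferon-stimulated response element, which binds IRF and STAT complexes after type I interferon, was searched on both strands as GAAA, any 2 bases and GAAA. The gamma-activated site, which binds STAT dimers, was searched as TTCNNNGAA. The following stretches are the 170 bases directly before the start, written 5′ to 3′ on the strand of the gene, with matches to either motif in capitals. Ifit1, Ifit3 and Rsad2 were lower in KMF and hold the response element, Bst2 was lower and holds both motifs, Irf1 was higher and holds the gamma-activated site, and Oasl1 was higher and holds neither within this stretch. The promoters of Oas1c, which was lower and holds the response element, and of Tap1 and Psmb9, which were lower and hold neither motif, are not shown.
Ifit1, chr19:34640719-34640888, plus strand: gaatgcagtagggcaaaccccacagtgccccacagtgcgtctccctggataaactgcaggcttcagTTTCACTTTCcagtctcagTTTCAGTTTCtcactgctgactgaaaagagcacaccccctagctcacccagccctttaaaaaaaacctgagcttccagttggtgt
Ifit3, chr19:34583359-34583528, plus strand: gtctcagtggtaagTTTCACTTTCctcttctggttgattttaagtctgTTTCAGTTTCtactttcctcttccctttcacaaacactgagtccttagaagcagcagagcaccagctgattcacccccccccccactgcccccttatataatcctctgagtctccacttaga
Rsad2, chr12:26456453-26456622, minus strand: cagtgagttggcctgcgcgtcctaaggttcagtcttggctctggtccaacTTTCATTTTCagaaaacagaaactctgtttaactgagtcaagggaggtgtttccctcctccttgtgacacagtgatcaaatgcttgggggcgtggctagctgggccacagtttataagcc
Bst2, chr8:71537473-71537642, minus strand: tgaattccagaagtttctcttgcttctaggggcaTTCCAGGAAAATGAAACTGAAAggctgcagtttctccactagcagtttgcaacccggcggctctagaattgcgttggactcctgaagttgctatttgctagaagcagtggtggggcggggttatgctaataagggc
Irf1, chr11:53769844-53770013, plus strand: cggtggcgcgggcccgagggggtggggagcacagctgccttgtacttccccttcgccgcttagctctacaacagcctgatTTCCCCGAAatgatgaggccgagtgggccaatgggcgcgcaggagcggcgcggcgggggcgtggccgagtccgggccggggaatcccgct
Oasl1, chr5:114923070-114923239, plus strand: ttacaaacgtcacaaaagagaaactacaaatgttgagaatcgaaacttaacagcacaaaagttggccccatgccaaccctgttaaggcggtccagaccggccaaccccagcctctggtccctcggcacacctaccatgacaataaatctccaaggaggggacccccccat

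In Ifit1 the response element matched at -104 to -95 and at -85 to -76, counted from the transcript start. In Ifit3 it matched at -156 to -147 and at -122 to -113, and in Rsad2 once at -120 to -111. The matches of Oas1c at -114 to -105 and -108 to -99 overlap each other, and so do those of Bst2 at -130 to -121 and -124 to -115. The gamma-activated site of Bst2 at -136 to -128 shares bases with the first of these, and that of Irf1 lay at -90 to -82. Across the 52 promoters, 18 held the response element, or 34.6%, against 3.99% of 27025 genes with a promoter in the same table. Of the 29 genes with a promoter that were called lower, 13 held it (44.8%), and of the 19 called higher 3 did (15.8%), namely Ddx58, Ifi203 and Ifitm3. In Ifi203 the match was GAAATCGAAA at -35 to -26 of the second of its listed starts, while those of Ddx58 (TTTCGATTTC) and Ifitm3 (GAAAAGGAAA and GAAACCGAAA) lay after the start. Among the genes called lower, the matches of Ifih1 (GAAACAGAAA) and Psme1 (TTTCGCTTTC) lay after the start as well. TTCNNNGAA was found in 12 of 52 promoters, or 23.1%, against 9.55% of all. It stood in 4 of 29 promoters of genes called lower (13.8%) and in 5 of 19 of those called higher (26.3%). The kappa-B motif, searched as GGGAC directly followed by TTTCC, was found in none of the 52 promoters and in 0.174% of all. A match is a description of letters in the window and was not tested as a binding site. The genes were chosen by interferon-related names, which bears on the share with a response element.

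All 3 genes of the class I list and the 1 gene of the class II list were lower in KMF, while H2-M10.4, a class Ib gene outside these lists that is described with the further names, was higher (log2 fold change 2.21). H2-K1, the classical class I heavy chain K (ENSMUSG00000061232, chr17:33996017-34000333, minus strand), had FPKM values of 24.8, 36.8 and 25.5 in ID8 and 11.3, 11.9 and 10.7 in KMF. FPKM is the number of fragments of a gene scaled to its length and to the size of the library, and it is the scale of every level below. Every KMF library lay below every ID8 library for H2-K1, and the ID8 mean of 29.0 ± 6.71 (SD, n = 3) stood against 11.3 ± 0.627 for the KMF libraries. The log2 fold change of H2-K1 was -1.33 ± 0.17 (SE), with an edgeR adjusted p = 0.000623. H2-Q4, a class Ib heavy chain, was near the lower end of detection at 0.562, 0.702 and 0.450 in ID8 and 0.0817, 0.0667 and 0.220 in KMF. Its log2 fold change was -2.09 ± 0.47 (edgeR adjusted p = 0.00933), and -2.86 without KMF replicate 3, the highest KMF library. H2-T23, which encodes the Qa-1 chain that presents peptides to NK cell receptors, changed least of the class I genes, from 63.1 ± 9.28 in ID8 to 40.5 ± 3.44 in KMF (log2 fold change -0.60 ± 0.11, edgeR adjusted p = 0.00436). The class I list held 28 names, of which these 3 were in the table, and the other 25 were not analysed here. Class I genes are near-identical copies in parts, so the split of reads among them is uncertain. In bulk samples such as these, fewer cells of a type and less RNA per cell cannot be told apart.

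Cd74, the invariant chain that guards the class II groove, was the 1 gene of 11 class II names that could be analysed. It was at 1.27, 1.59 and 0.857 FPKM in ID8 and at 0.391, 0.215 and 0.320 in KMF, so the lines did not overlap. The log2 fold change of Cd74 was -1.95 ± 0.38 with an edgeR adjusted p = 0.00483. Both lines therefore held it at a low level, and only the ID8 mean of 1.24 ± 0.366 passed 1 FPKM.

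Of the genes that make and load peptides, 6 of 11 names were analysed, and 4 of them fell, with a median log2 fold change of -0.42 over the 6. Tap1, a subunit of the peptide transporter of the endoplasmic reticulum, was at 5.97, 5.98 and 7.20 in ID8 and at 3.88, 3.75 and 3.79 in KMF. The spread within KMF was small beside the gap between the lines, and the log2 fold change was -0.70 ± 0.11 (edgeR adjusted p = 0.00198). Psmb9, a catalytic subunit of the immunoproteasome, stands head to head with Tap1 at chr17:34181988-34187764 and was at 2.12, 2.77 and 3.00 in ID8 against 1.00, 0.870 and 0.710 in KMF. Its log2 fold change of -1.58 ± 0.23 (edgeR adjusted p = 0.00117) was the largest in this list. The annotated spans of Tap1 and Psmb9 overlap on opposite strands, and whether counting used strand is not given in the sources used here. Psmb10, another immunoproteasome subunit, fell from 28.4 ± 0.341 to 20.2 ± 0.884 (log2 fold change -0.46). Psme1, a subunit of the proteasome activator PA28, fell from 46.4 ± 1.28 to 34.4 ± 2.79 (log2 fold change -0.39).

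Psmb8 and Ifi30 lay on the other side. Psmb8, the immunoproteasome subunit encoded next to Tap1, was at 0.480, 0.695 and 0.347 in ID8 and at 0.956, 0.930 and 0.931 in KMF. Its log2 fold change of 0.93 ± 0.32 was not called (edgeR adjusted p = 0.0557), and it was called without ID8 replicate 2, at 1.22 and an adjusted p = 0.0292. Ifi30, a lysosomal thiol reductase that unfolds proteins for class II loading, rose from 29.9 ± 3.23 to 52.0 ± 7.90 (log2 fold change 0.84 ± 0.14, edgeR adjusted p = 0.00199). Of the 6 genes, Psmb8 was the 1 that was not called and Ifi30 the 1 that rose.

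Nlrc5, the transactivator that drives class I gene transcription, was at a low level, near the limit of 3 counts in KMF. It had 31, 28 and 16 counts in ID8 and 1, 7 and 2 in KMF, or 0.136 ± 0.0408 and 0.0195 ± 0.0210 FPKM. The groups did not overlap, and the log2 fold change was -2.81 ± 0.65 (edgeR adjusted p = 0.0103). Leaving out KMF replicate 2, the highest of its line, moved it to -4.01. Cd274, which encodes the checkpoint ligand PD-L1, was at 0.721, 1.06 and 0.699 in ID8 and at 0.538, 0.323 and 0.299 in KMF. ID8 replicate 2 was the highest and KMF replicate 1 came closest to the ID8 range. The log2 fold change of -1.06 ± 0.33 was called (edgeR adjusted p = 0.0381). The call was lost without ID8 replicate 1 or 2 or KMF replicate 2 or 3, where the value was -1.16, -0.83, -0.95 and -0.88 and the adjusted p 0.0713, 0.134, 0.126 and 0.134.

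**Figure D2:**
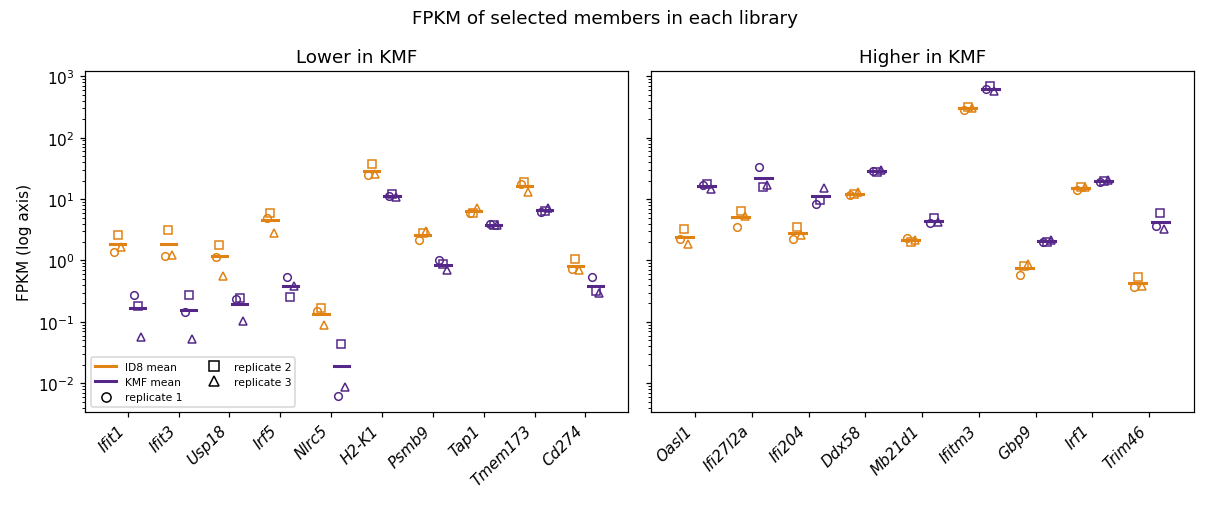
FPKM (y axis, log scale) of 19 of the 66 genes in each of the 6 libraries, with ID8 in orange, KMF in purple, symbols for replicates 1 to 3 and bars for the mean of each line. The left panel shows 10 genes lower in KMF and the right panel 9 that were higher. No gene has overlapping lines, and the levels run from 0.00611 for Nlrc5 in KMF to 684 for Ifitm3.

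Among the transcription factors that carry the interferon signal, directions were mixed and most changes small. Irf5, a factor that induces interferon and inflammatory cytokines (ENSMUSG00000029771, chr6:29526625-29541869, plus strand), was at 4.86, 5.88 and 2.80 in ID8 and at 0.530, 0.251 and 0.390 in KMF. Each KMF library was far below the lowest ID8 library, and the level fitted by edgeR was 11.2-fold higher in ID8 (log2 fold change -3.49 ± 0.38, edgeR adjusted p = 0.000297). Irf5 overlaps Tnpo3 on the opposite strand. Irf1, which activates class I and immunoproteasome genes, was at 14.2, 15.5 and 15.5 in ID8 and at 19.2, 19.9 and 20.6 in KMF, a log2 fold change of 0.44 ± 0.08 (edgeR adjusted p = 0.00384). Irf1 was thus higher in the line in which H2-K1, Tap1 and Psmb9 were lower. The other 7 of 9 IRF names were not analysed here.

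Stat3, which answers mainly to interleukin-6 family cytokines, fell from 60.0 ± 7.28 to 42.8 ± 2.22 (log2 fold change -0.45 ± 0.10, edgeR adjusted p = 0.00779). Stat6, which answers to interleukin-4, went from 34.8 ± 2.59 to 43.4 ± 3.98 (log2 fold change 0.36 ± 0.09, edgeR adjusted p = 0.0143). The call of Stat6 was lost without ID8 replicate 2 (0.31, adjusted p = 0.0515) and without KMF replicate 2 (0.31, adjusted p = 0.0517). Stat3 and Stat6 thus moved in opposite directions.

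Sensors of nucleic acid rose in 4 of 6 cases, with a median log2 fold change of 1.08, where 45.4% of fitted genes were called higher. Tlr3, an RNA sensor that is counted with the sensing adaptors below, fell (log2 fold change -1.0). Ddx58, which encodes the RNA sensor RIG-I, was at 11.6, 12.2 and 13.1 in ID8 and at 28.8, 28.1 and 29.2 in KMF. The libraries of each line were close together, and the log2 fold change was 1.26 ± 0.07 (edgeR adjusted p = 2.18e-05). Ifih1, which encodes the related RNA sensor MDA5, went the other way, from 4.30 ± 0.274 to 2.59 ± 0.260 (log2 fold change -0.69 ± 0.12, edgeR adjusted p = 0.00262). The lines thus differed in opposite directions for this pair of RNA sensors.

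The cytosolic DNA sensors and their adaptor were split as well. Mb21d1, which encodes the DNA sensor cGAS, was at 2.35, 2.03 and 2.16 in ID8 and at 4.15, 4.84 and 4.28 in KMF (log2 fold change 1.06 ± 0.13, edgeR adjusted p = 0.000483). Tmem173, which encodes STING, the adaptor that cGAS signals through, was at 17.4, 19.1 and 13.3 in ID8 and at 6.12, 6.33 and 7.12 in KMF. STING was thus 2.47-fold higher in ID8 (log2 fold change -1.31 ± 0.16, edgeR adjusted p = 0.000452), opposite to cGAS. Ifi204, an HIN-200 protein that binds DNA, was at 2.27, 3.46 and 2.56 in ID8 and at 8.36, 9.56 and 15.2 in KMF, with KMF replicate 3 the highest (log2 fold change 2.04 ± 0.26, edgeR adjusted p = 0.000668). Ifi203, a relative encoded in the same cluster on chromosome 1, was at 0.524, 0.563 and 0.550 in ID8 and at 1.44, 0.680 and 1.27 in KMF (log2 fold change 1.09 ± 0.30, edgeR adjusted p = 0.0239). Its call was lost without any 1 of the ID8 replicates or without KMF replicate 1 or 3, with values of 1.06, 1.12, 1.09, 0.89 and 1.01 and adjusted p-values from 0.0549 to 0.0849. Ifi203 overlaps Mndal on the same strand, and reads may be shared within the family.

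The antiviral effectors moved in both directions. Of 14 effectors analysed from 44 names, 7 were called lower, 6 higher and Ifi35 was not called (log2 fold change -0.43, edgeR adjusted p = 0.0700). With at least 10 counts required in every library, 3 effectors were called lower and 6 higher. Among the lower effectors, Ifit3 and Ifit1 fell most. The proteins of the Ifit genes bind viral RNA and block its translation, and these genes lie side by side on chromosome 19. Ifit1 (ENSMUSG00000034459, chr19:34640871-34650009, plus strand) was at 1.37, 2.57 and 1.63 in ID8 and at 0.271, 0.179 and 0.0567 in KMF. Its lowest KMF library had 5 counts and its highest ID8 library 165. The level of Ifit1 fitted by edgeR was 11-fold higher in ID8, with a log2 fold change of -3.46 ± 0.52 (edgeR adjusted p = 0.00133). Ifit3 was at 1.19, 3.16 and 1.23 in ID8 and at 0.146, 0.273 and 0.0518 in KMF. ID8 replicate 2 stood above the other ID8 libraries, and the log2 fold change of -3.58 ± 0.65 (edgeR adjusted p = 0.00342) was -2.95 without it and -4.23 without KMF replicate 2. Ifit2 was at 0.862, 1.77 and 0.572 in ID8 and at 0.40, 0.329 and 0.118 in KMF (log2 fold change -1.91 ± 0.56, edgeR adjusted p = 0.0301). Ifit2 lost its call without ID8 replicate 1 or 2 or KMF replicate 2 or 3, with values of -2.04, -1.32, -2.03 and -1.49 and adjusted p-values of 0.0553, 0.10, 0.0703 and 0.0811.

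Usp18, the protease that removes ISG15 from proteins and dampens the interferon receptor, was at 1.15, 1.8 and 0.550 in ID8 and at 0.240, 0.244 and 0.102 in KMF. All KMF libraries lay below ID8 replicate 3, the lowest of its line, and the log2 fold change was -2.57 ± 0.56 (edgeR adjusted p = 0.00789). Rsad2, which encodes viperin, had 18, 52 and 23 counts in ID8 and 6, 7 and 3 in KMF. Most of its ID8 signal was in replicate 2, and the log2 fold change of -2.49 ± 0.66 (edgeR adjusted p = 0.0193) became -1.79 without that library (adjusted p = 0.0533) and -2.05 without KMF replicate 3 (adjusted p = 0.0732). Oas1c, of the oligoadenylate synthetase family, was at 1.29, 1.27 and 0.782 in ID8 and at 0.370, 0.302 and 0.565 in KMF (log2 fold change -1.37 ± 0.35, edgeR adjusted p = 0.0155). Its call was lost without ID8 replicate 1 (-1.26, adjusted p = 0.0642) and without KMF replicate 2 (-1.19, adjusted p = 0.0553). Bst2, which encodes tetherin and holds budding virus at the cell surface, was abundant and changed under 2-fold, from 44.3 ± 6.41 to 29.9 ± 5.57 (log2 fold change -0.53). The call of Bst2 was lost without ID8 replicate 1 or 2 or KMF replicate 2 or 3, with values of -0.58, -0.40, -0.42 and -0.47 and adjusted p-values from 0.0712 to 0.143.

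Effectors that rose included the most abundant of them. Oasl1, a relative of the oligoadenylate synthetases that restrains Irf7 translation (ENSMUSG00000041827, chr5:114923240-114937915, plus strand), was at 2.27, 3.27 and 1.82 in ID8 and at 16.7, 17.9 and 14.6 in KMF. The lowest KMF library was above the highest ID8 library several times over, and the log2 fold change was 2.78 ± 0.22 (edgeR adjusted p = 7.39e-05). Oasl1 and Oas1c, of the same family, thus moved in opposite directions. Ifi27l2a was at 3.52, 6.35 and 5.30 in ID8 and at 32.7, 15.8 and 17.1 in KMF, with KMF replicate 1 the highest (log2 fold change 2.16 ± 0.36, edgeR adjusted p = 0.00228). Ifitm3, which keeps viruses from fusing with endosomes, was at 287, 316 and 306 in ID8 and at 618, 684 and 573 in KMF. It had the highest level of the 66 genes in both lines, and the log2 fold change was 1.09 ± 0.09 (edgeR adjusted p = 9.36e-05). Ifi47, an interferon-induced GTPase, was at 0.960, 1.52 and 0.816 in ID8 and at 2.64, 1.64 and 2.66 in KMF (log2 fold change 1.11 ± 0.32, edgeR adjusted p = 0.0283). ID8 replicate 2 and KMF replicate 2 lay close together for Ifi47. Its call was lost without ID8 replicate 1 or 3 or KMF replicate 1 or 3, with values of 1.02, 0.94, 1.01 and 1.02 and adjusted p-values from 0.0756 to 0.108. Samhd1 and Isg20 rose under 2-fold, with log2 fold changes of 0.44 and 0.71.

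Gbp4, Gbp6 and Gbp9, guanylate-binding proteins that attack the vacuoles of pathogens, were higher in KMF, and the IRG family GTPases Irgm1 and Irgm2 were lower. Ifi47, an IRG family GTPase that is counted here with the effectors, was higher (log2 fold change 1.11, edgeR adjusted p = 0.0283). Gbp9 was at 0.588, 0.810 and 0.879 in ID8 and at 2.0, 2.02 and 2.16 in KMF (log2 fold change 1.48 ± 0.21, edgeR adjusted p = 0.000935). Gbp6 was at 0.849, 0.941 and 0.939 in ID8 and at 2.18, 1.84 and 1.85 in KMF (log2 fold change 1.14 ± 0.17, edgeR adjusted p = 0.00124). Gbp4 was lower in level, at 0.202, 0.137 and 0.249 in ID8 and at 0.476, 0.515 and 0.743 in KMF (log2 fold change 1.60 ± 0.32, edgeR adjusted p = 0.00554). These genes lie together on chromosome 5, where 63.6% of called genes were higher in KMF. The annotated span of Gbp9 overlaps Gbp4 and Gbp8 on the same strand, and that of Gbp6 overlaps Gbp10 and another Gbp6 entry, so reads in the shared parts cannot be assigned to 1 gene. Gbp5, on chromosome 3, had 15, 11 and 2 counts in ID8 and 38, 21 and 22 in KMF and was not called (log2 fold change 1.61 ± 0.61, edgeR adjusted p = 0.0798). Its span in the table also covers Gbp3, Gbp7 and a separate Gbp5 entry on the same strand, and Irgm2 overlaps Igtp likewise, so the levels given under these names may not be those of 1 gene. Irgm1 and Irgm2, regulators of the other family members on membranes, changed under 2-fold, with log2 fold changes of -0.80 and -0.88. Of the 15 names of the GTPase list, which leaves out Ifi47, 6 were analysed, and 3 were called higher and 2 lower.

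The TRIM genes, 21 of the 66, encode ubiquitin ligases of which some act in antiviral defence and many do not. They were called higher in 9 cases and lower in 11, and Trim34a was not called. Trim46, which organizes microtubules of axons, had the largest rise of the 66 genes, from 0.365, 0.548 and 0.383 in ID8 to 3.70, 5.91 and 3.22 in KMF (log2 fold change 3.35 ± 0.31, edgeR adjusted p = 0.000133). Trim46 overlaps Krtcap2 on the opposite strand. Trim72, a membrane repair protein of muscle, had 7, 13 and 4 counts in ID8 and 36, 64 and 55 in KMF, a log2 fold change of 2.71 that was 3.33 without ID8 replicate 2. Trim16, Trim59 and Trim47 rose by 1.43, 1.27 and 1.20 on the log2 scale, and Trim47 reached 94.7, 98.9 and 93.7 in KMF from 39.2, 42.9 and 46.8 in ID8.

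The TRIM genes that fell at least 2-fold were Trim40, Trim15, Trim5, Trim62, Trim68 and Trim7. Trim40, a ligase of the gut epithelium, was at 0.881, 0.685 and 0.902 in ID8 and at 0.0401, 0.184 and 0.0569 in KMF (log2 fold change -3.12 ± 0.50, edgeR adjusted p = 0.00189), and its value was -3.95 without KMF replicate 2. Trim15, which lies beside Trim40 and Trim26 in the MHC region of chromosome 17, had 20, 21 and 18 counts in ID8 and 2, 9 and 5 in KMF (log2 fold change -1.82, edgeR adjusted p = 0.0266). Trim15 was not called without ID8 replicate 1 or 2 or KMF replicate 1 or 3 (values from -1.89 to -1.49, adjusted p from 0.0662 to 0.103), and was at -2.53 without KMF replicate 2. Trim5, a restriction factor of retroviruses, had 26, 14 and 23 counts in ID8 and 7, 8 and 4 in KMF (log2 fold change -1.63, edgeR adjusted p = 0.0263). Its call was lost without ID8 replicate 1 or 3 or KMF replicate 3, at -1.53, -1.55 and -1.23 with adjusted p-values from 0.0584 to 0.0942. The annotated span of Trim5 overlaps that of Trim34a on the opposite strand. Trim62, Trim68 and Trim7 fell by 1.54, 1.46 and 1.39 on the log2 scale.

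Further names matched the rule without belonging to a list above. H2-M10.4, a class Ib heavy chain of the M10 family, had 3, 7 and 0 counts in ID8 and 13, 11 and 24 in KMF (log2 fold change 2.21 ± 0.74, edgeR adjusted p = 0.0484). This was the 1 MHC gene of the 66 that was higher in KMF. Its call was lost without ID8 replicate 1 or 3 or any 1 of the KMF replicates, with values of 2.05, 1.65, 2.26, 2.34 and 2.03 and adjusted p-values from 0.0591 to 0.170, and it was at 3.39 without ID8 replicate 2. Isg20l2, a ribosome biogenesis nuclease that shares part of its name with Isg20, had a log2 fold change of 0.35. Its call was lost without ID8 replicate 1 or 3 or KMF replicate 1 or 2, with values of 0.33, 0.33, 0.31 and 0.35 and adjusted p-values from 0.0681 to 0.0995. Without the TRIM genes and these names, 43 genes remained, of which 17 were higher and 23 lower, with a median log2 fold change of -0.45.

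**Figure D3:**
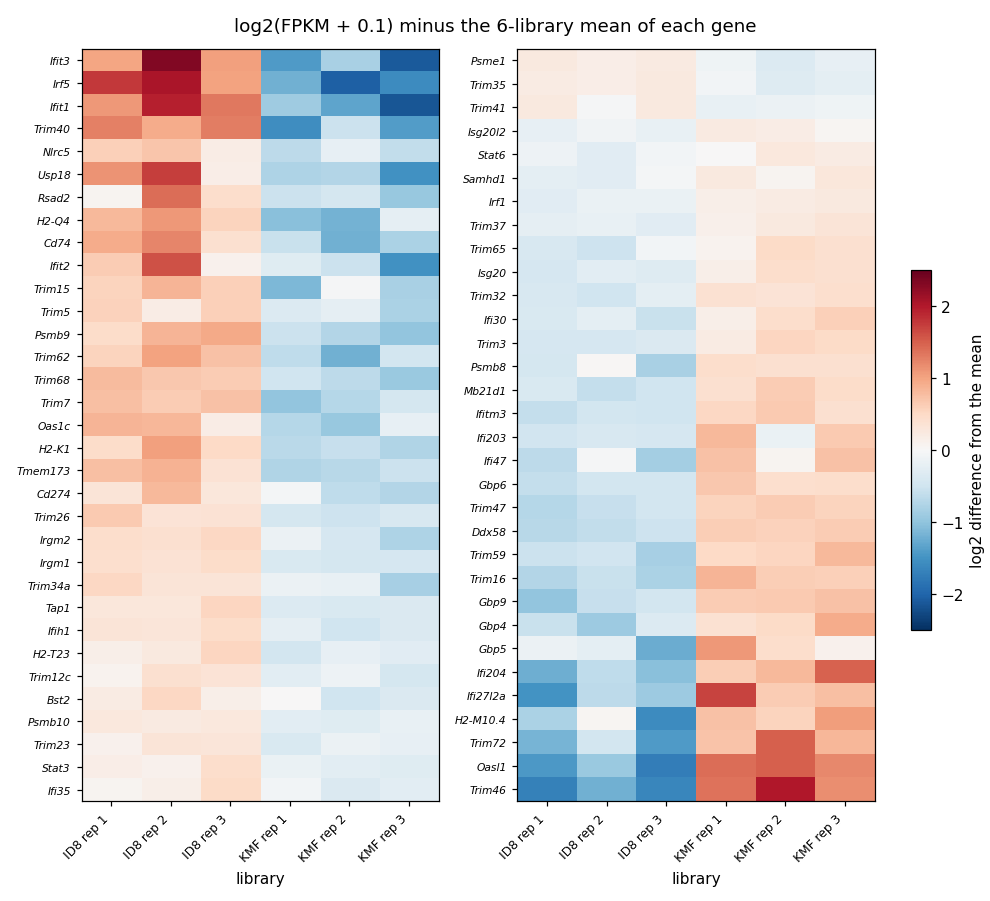
Difference of log2(FPKM + 0.1) from the mean of the 6 libraries (color) for 65 of the 66 genes (rows, ordered by fold change) in each library (columns). Red is above the mean of the gene and blue below it. ID8 replicate 2 has the deepest red for Ifit3, Ifit1, Usp18, Ifit2 and Rsad2.

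The ID8 libraries were not alike for these genes. Of the 20 genes that were at least 2-fold lower in KMF, 15 had their highest ID8 level on scaled counts in replicate 2, which is 75.0%, against 33.6% of the 1566 listed genes that changed as much in that direction. Of the 17 genes at least 2-fold higher in KMF, 12 were highest within ID8 in the same library (70.6%), against 50.0% of 1255. Replicate 2 was thus the ID8 library with the most genes at their highest level in both directions. No such library stood out in KMF, where replicates 1, 2 and 3 held the highest level for 7, 8 and 5 of the 20 genes. The genes share these libraries and some share a cluster, so the shares are given without a test. Some cell type markers were highest in this library as well, and no share over all listed genes was computed for them on the same scale. By FPKM, ID8 replicate 2 was the highest ID8 library for 6 of 8 markers of ovarian surface epithelium and mesothelium in the table, among them Upk3b at 25.2, 41.8 and 8.97, and for 3 of 4 fibroblast and endothelial markers, among them Dcn at 55.5, 86.8 and 57.3, but for neither of the leukocyte markers. Some of these leads were small, as for Krt7 at 1.88, 2.02 and 0.809, and Kdr rested on 2, 10 and 7 counts. Wt1, at 118, 112 and 94.8, was not highest there. The part of the markers in the order of the libraries was not tested. Without ID8 replicate 2, 8 of the 62 called genes lost their call, and 4 of these, Ifit2 (-1.32, adjusted p = 0.10), Rsad2 (-1.79, adjusted p = 0.0533), Cd274 (-0.83, adjusted p = 0.134) and Trim15 (-1.69, adjusted p = 0.0791), were among the 20 genes at least 2-fold lower. The other 16 of the 20 were still called, with log2 fold changes of -3.14 for Ifit1, -2.11 for Usp18, -1.11 for H2-K1 and -3.24 for Irf5. Each of the other libraries, left out in turn, cost 7 to 11 of the 62 genes their call, so this count does not set ID8 replicate 2 apart.

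**Figure D4:**
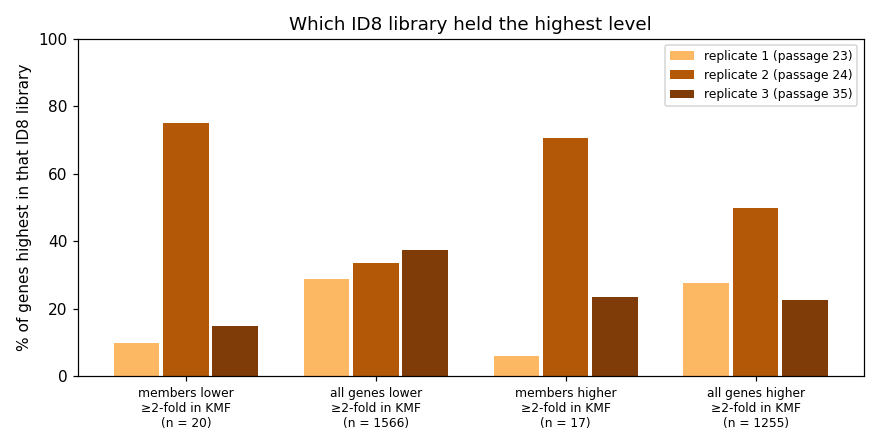
Percentage of genes (y axis) whose highest ID8 level lay in replicate 1, 2 or 3, for the genes of the interferon and antigen presentation set and for all listed genes that changed at least 2-fold in KMF. The bar of replicate 2 reaches 75.0% for the 20 lower genes of the set and 33.6% for all 1566 lower genes.

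A mean above 1 FPKM was reached by 50 of the 66 genes in ID8 and by 44 in KMF. Both lines passed it for 40 genes, ID8 alone for 10, KMF alone for 4, and neither line for 12. Among the effectors, 5 of 14 passed it in ID8 alone. In neither line did a gene fall to 3 counts or fewer throughout, so none of the fold changes is a bound.

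By position, all 4 of the set on chromosome 19, Ifit1, Ifit2, Ifit3 and Cd274, were lower, and 25.8% of called genes there were higher in KMF. Of the 10 genes on chromosome 17, where the MHC lies, 8 were lower, 1 higher and 1 not called, and 48.9% of called genes there were higher. Chromosome 11 held the most, 12 genes, with 6 higher, 5 lower and Ifi35 not called, where 27.2% of called genes were higher. On chromosome 1 all 3 were higher, against 53.8% of called genes, and on chromosome 3 the 3 called were higher and Gbp5 was not called, against 74.9%. The part of the copy number gains and losses that the study found in KMF was not tested, here or for the genes outside the set.

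The pathway around the set was described with 105 further names, of which 51 were in the table and 50 were fitted. Of these, 27 were called higher and 20 lower, a balance that turned to 19 higher and 23 lower with upper quartile scaling. Among receptors and kinases, Ifngr1, the ligand-binding chain of the interferon-gamma receptor, was at 30.5, 28.5 and 32.7 in ID8 and at 15.7, 15.1 and 14.4 in KMF (log2 fold change -0.98 ± 0.08, edgeR adjusted p = 9.63e-05). Its partner chain Ifngr2 went the other way, at 28.1, 30.0 and 31.7 in ID8 and 38.0, 46.7 and 46.4 in KMF (log2 fold change 0.58 ± 0.10, edgeR adjusted p = 0.00222). The kinases that serve this receptor were also split, since Jak1 rose from 49.3 ± 4.45 to 125 ± 5.4 (log2 fold change 1.38 ± 0.09) and Jak2 fell from 21.0 ± 0.466 to 13.7 ± 1.04 (log2 fold change -0.58 ± 0.08). Tyk2, a kinase of the type I receptor, rose (log2 fold change 0.60), Socs1, a feedback inhibitor of JAK kinases, fell (-0.98), and Pias3, an inhibitor of STAT3, rose (1.40). Socs1 was not called without ID8 replicate 2 (-0.91, adjusted p = 0.0684) or KMF replicate 2 (-0.88, adjusted p = 0.0750).

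Among sensing adaptors, 6 were higher and 4 lower. Tlr4, the receptor for lipopolysaccharide, rose from 8.55 ± 1.17 to 25.2 ± 2.51, a log2 fold change of 1.60. Tlr3, an endosomal RNA sensor, fell, with a log2 fold change of -1.0. Mavs, the mitochondrial adaptor of RIG-I and MDA5, fell from 56.6 ± 9.67 to 30.4 ± 1.68 (log2 fold change -0.86 ± 0.12, edgeR adjusted p = 0.000900). RIG-I was thus higher and its adaptor lower in KMF, as cGAS was higher and STING lower.

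Of 20 other interferon-induced genes that were fitted, 11 rose and 9 fell. Among the 11, Apobec3 and Parp12 changed little (log2 fold changes 0.25 and 0.26, edgeR adjusted p = 0.0467 and 0.0272), and each lost its call in 12 of 14 alternatives, with adjusted p-values of up to 0.338 and 0.226. Phf11d had the largest rise, from 0.251, 0.348 and 0.301 in ID8 to 7.06, 5.25 and 7.28 in KMF (log2 fold change 4.48 ± 0.22, edgeR adjusted p = 1.12e-05). Casp1, the inflammasome protease, Ly6e, a surface protein that hinders coronavirus entry, and Cmpk2, a mitochondrial nucleotide kinase, rose by 2.11, 1.23 and 1.09 on the log2 scale. Slfn2, of the Schlafen family, had the largest fall, from 12.4, 10.5 and 18.4 in ID8 to 0.255, 1.48 and 0.760 in KMF (log2 fold change -4.01 ± 0.49, edgeR adjusted p = 0.000496). The GTPases Tgtp2 and Tgtp1 fell by 2.88 and 1.12, the chemokine Cxcl10 fell by 2.75, the helicase Ddx60 fell by 2.34 and the nuclear body protein Sp100 fell by 2.09 on the log2 scale. Cxcl10 was at 0.434, 1.14 and 0.427 in ID8 and at 0.194, 0 and 0.0826 in KMF, again with ID8 replicate 2 the highest. Cxcl10 lost its call without ID8 replicate 2 (-2.13, adjusted p = 0.0941) or KMF replicate 2 (-2.25, adjusted p = 0.0645) or 3 (-2.64, adjusted p = 0.10), and was at -3.64 without KMF replicate 1. Cmpk2 lost its call without any 1 library other than ID8 replicate 2, and its value in those fits ran from 0.82 to 1.13 with adjusted p-values from 0.0543 to 0.111. Tgtp1 lost its call without KMF replicate 3 (-0.98, adjusted p = 0.0549), Tgtp2 was at -3.85 without KMF replicate 1 and Slfn2 at -4.64 without KMF replicate 2. In antigen processing, Cd1d1, which presents lipids to NKT cells, fell from 7.97 ± 2.24 to 1.64 ± 0.366 (log2 fold change -2.24 ± 0.26, edgeR adjusted p = 0.000440), while 6 of the 13 genes analysed in that list rose, each under 2-fold, among them the chaperones Calr, Canx and Pdia3. Including Cd1d1, 4 of the 13 fell and 3 were not called, and the median log2 fold change of the list was -0.40. Calr and Canx were not called without ID8 replicate 1 or 3 or KMF replicate 2 or 3, with adjusted p-values of 0.0577 to 0.104 and values of 0.30 to 0.39.

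**Figure D5:**
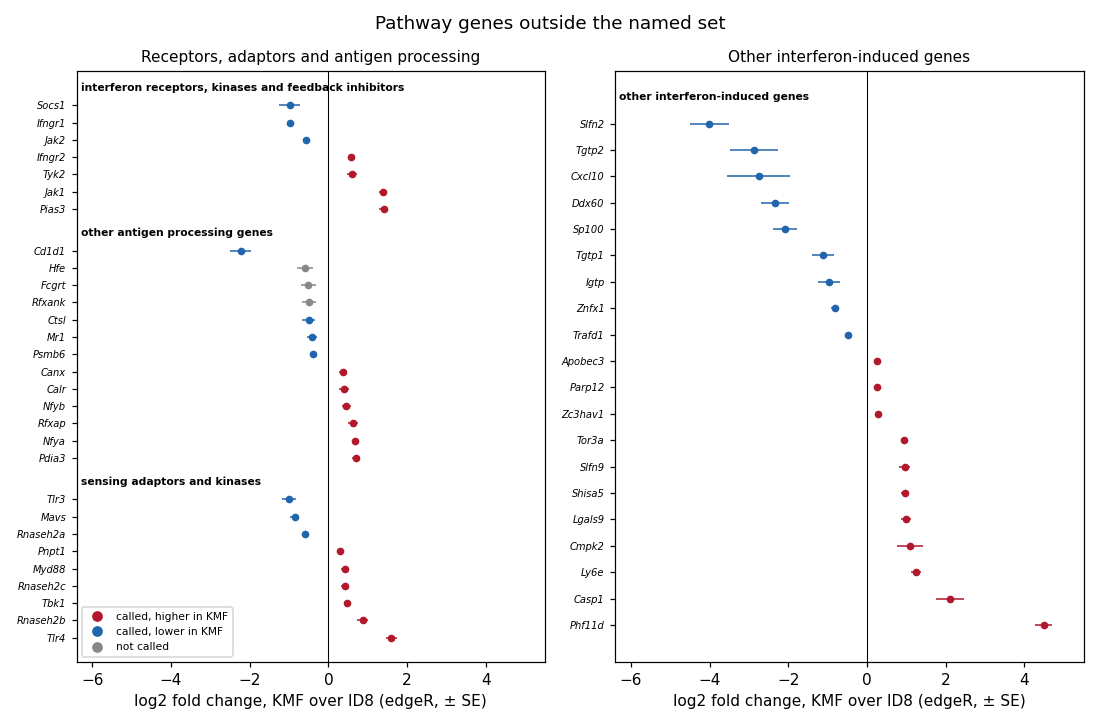
Log2 fold change of KMF over ID8 from the edgeR fit (x axis) for 49 of the 50 fitted pathway genes outside the set of 66 (y axis, grouped by list), with bars of 1 SE. Red points were called higher in KMF, blue points lower and grey points were not called. Values run from -4.01 for Slfn2 to 4.48 for Phf11d.

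Markers of cell types were checked beside these results. Of 12 markers of ovarian surface epithelium and mesothelium, 8 were in the table, and their summed level was 147 to 224 FPKM in ID8 and 161 to 212 in KMF. Wt1 (108 ± 12.1 in ID8, 77.3 ± 13.2 in KMF) and Msln (34.3 ± 4.70 and 91.5 ± 11.6) were well detected in both lines, although Wt1 was itself called lower. Of the 7 fitted markers of this list, 5 were lower, among them Lrrn4, Upk3b, Cdh1 and Krt7 with log2 fold changes of -4.08, -3.88, -3.55 and -2.55, and the summed level was carried largely by Wt1 and Msln. Of 20 leukocyte markers, Kit and Fcgr3 were in the table and the other 18 were not analysed here. The summed level of Kit and Fcgr3 was 10.3 to 12.7 FPKM in ID8 and 1.02 to 1.51 in KMF. It was lower in KMF, as were the class I, class II and Ifit genes. Kit carried more of the sum in ID8, with a mean of 7.7 against 3.5 for Fcgr3. Of 9 fibroblast and endothelial markers, 4 were in the table, with a summed level of 66.2 to 96.7 in ID8 and 13 to 24.3 in KMF, and Kdr was at 0 in every KMF library. Every marker described here is listed because the authors had already called it different between these libraries. The summed levels therefore cannot measure how many cells of a type were present. The part of these cell type markers in the changes of the interferon and antigen presentation genes was not tested.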

How the data were processed

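RNA of 3 ID8 and 3 KMF libraries was extracted with a column kit, enriched for poly-A RNA and sequenced as paired-end reads by a service provider. The submitters' processing notes name CASAVA 1.8, STAR 2.5, DESeq2 and the build mm10, while the methods of the study name TopHat2 as the aligner. The counting tool, the annotation release and the use of strand are not given in the sources used here. The deposited table holds counts per gene and library that the authors left unnormalized, the gene length in bases, and FPKM, which the authors scaled to gene length and library size. It also holds the authors' deposited p-value with its adjustment, up to 0.0499, along with their fold change and mean columns. The p-values served only to recover the 17359 genes of the authors' test, and the fold changes and means were not used.

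The 66 genes, the lists of roles, pathway genes and markers and the tests were chosen with earlier results of these data known, and the number of calls is therefore not independent support. Library totals were recovered from count, FPKM and length. The edgeR fit (version 4.0.16, R 4.3.3) took counts as deposited (TMM scaling on the listed genes, filterByExpr, glmQLFit and glmQLFTest, two-sided, no covariate), and p-values were adjusted by Benjamini-Hochberg over 17359 genes. The filter kept 6967 of 7320 genes and all 66 of the set. The SE of a log2 fold change was taken from the F statistic. All libraries were kept as separate replicates, since those of a line differed by more than sampling noise (lowest chi-square per degree of freedom 19.3). Replicate numbers do not pair the lines, since deviations of same-numbered libraries did not move together. Positions are those of the table, and all 66 overlapped their position in GENCODE M21 (GRCm38), while 25 of the 66 overlapped another protein-coding gene by its position there or in the table.

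Named genes were all genes of the class I, class II, peptide, regulator, STAT, IRF and sensor lists, and in the effector, GTPase and TRIM lists those called with at least a 2-fold change. Further genes are named where a count or an overlap calls for it, and these were chosen after their values were seen. Outside the set, receptors and kinases and genes changed at least 2-fold were named. Alternatives were DESeq2 1.42.0, limma 3.58.1 on log2(FPKM + 1) and log2(FPKM + 0.1), other scalings and filters, a replicate block, and each library left out in turn. A few genes that entered the fits and counts are not reported here by name. Promoter sequences are from RefSeq. Python 3.11.15, numpy 2.4.6, pandas 2.3.3 and matplotlib 3.10.9 were used for tables and figures.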

Additional observations from a re-analysis of the deposited data

How the results depend on the processing

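No gene of the 66 changed sign under any alternative that was run. Of 911 values of single genes under the alternatives, 825 kept their side of the threshold, 72 lost a call and 14 gained one, and 47 of the 66 genes kept theirs throughout. The numbers of the 66 genes called higher and lower were 27 and 36 with DESeq2, 25 and 25 with at least 10 counts required in every library, and 25 and 36 with upper quartile scaling, against 28 and 34. Without the TRIM genes and the further names, 17 were higher, since fewer genes were counted. The median log2 fold change of -0.41 was -0.46 with DESeq2, -0.45 with library totals alone, -0.29 with limma on log2(FPKM + 1) and -0.52 with upper quartile scaling, which moved the median of all genes by -0.11. It turned positive, at 0.30, with at least 10 counts in every library, a filter that leaves out genes under 10 counts in any library and moved the median of all fitted genes from -0.23 to 0.20. With 1 library left out, higher calls ranged from 24 to 27, lower calls from 26 to 31, the median from -0.45 to -0.34, and all calls from 5148 to 5790, against 6470. The replicate numbers share only a number, with correlations of deviations of 0.074, -0.088 and 0.108. With a replicate block, 25 genes were higher and 29 lower, the median was -0.41 and all calls numbered 5720. Among the 66 genes, the most calls were lost by H2-M10.4, in 10 alternatives, and Isg20l2, in 7. Outside the set, Apobec3 and Parp12 each lost theirs in 12 alternatives and Pnpt1 in 8. At these depths, levels such as those of Nlrc5, Rsad2 and Trim5 in KMF rest on under 10 counts.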
